A study of Mus musculus with 4 samples.

Results

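The genes described here are the 10 of 24444 in a table of mouse RNA sequencing that make up the IgA plasma cell and secretion axis: Jchain, Mzb1, Tnfrsf17, Ccr10, Ccl28, Tnfsf13, Tnfsf13b, Xbp1, Prdm1 and Pigr. They were chosen by name for their roles in making, recruiting and transporting secretory IgA, and the rule uses no measured value, although earlier results of these data were known when it was set. The 3 knockdown libraries were labelled as tumours of CT26, a BALB/c mouse colon carcinoma line, carrying a short hairpin RNA against Ppp2r1a, which encodes the scaffold of the PP2A phosphatase. The 1 control library was labelled as a CT26 tumour with a scrambled hairpin, and all libraries are called here by their labels. Per the study's methods the transfected cells of both kinds were selected with puromycin and grown in BALB/c hosts, and per the labels they were collected near 70 mm3. Whether the 3 knockdown tumours were from different mice is not stated in the labels, and mouse age was not given in the sources used here, so each p-value reflects no more than how these libraries vary, which may be technical. The single control carries no replicate error, and a feature of that tumour cannot be told apart from an effect of the knockdown.

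IgA plasma cells of the gut wall secrete IgA as dimers that are joined by the J chain, the product of Jchain. The dimers are bound on the basolateral side of epithelial cells by the polymeric immunoglobulin receptor, the product of Pigr, and are carried through the cell into the lumen. Plasma cells are drawn to mucosal surfaces through the receptor CCR10 and its ligand CCL28, and are kept alive through BCMA (Tnfrsf17), which binds APRIL (Tnfsf13) and BAFF (Tnfsf13b). None of 13 genes listed for the constant regions of immunoglobulin, including Igha, was found by name in the table. The class of antibody made by these cells was therefore not measured.

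Total expected counts, which are estimated read counts per gene, were 24726440 to 27910370 in knockdown tumours, against 28950004 in the control, and every pair of libraries differed by more than sampling noise. Knockdown replicate 3 and the control were the closest pair, with a chi-square per degree of freedom of 91.0, where the other pairs had 157 to 633. Their sample descriptions both end in the number 3, and its meaning is not stated in the labels. Levels are given below as TPM, the share of a library's transcripts after correction for gene length, which allows genes to be compared with each other. Ppp2r1a was at 40.2, 29.8 and 22.3 TPM in knockdown tumours 1, 2 and 3, against 75.1 TPM in the control. It was lower in every knockdown library, which is the direction of the labels, with a log2 fold change of -1.62 ± 0.26 (SE), and edgeR's quasi-likelihood test gave it an adjusted p of 0.782. DESeq2 called it with an adjusted p of 0.024, as did edgeR without knockdown replicate 3, with 0.033. Transcripts of normal intestine were present as well: Fabp6, the ileal bile acid binding protein, was at 2.44, 5.13 and 0.57 TPM in knockdown tumours, against 3435 TPM in the control, and the large bowel carbonic anhydrase Car1 was at 1439, 418 and 4.76 TPM in knockdown tumours, with no count in the control. The source of these transcripts and their part in the results below was not tested.

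Promoter sequences are shown for Jchain and Tnfrsf17, 2 plasma cell genes whose levels ran closely together, for Ccl28, an epithelial gene that ran the same way, and for Pigr, an epithelial gene that did not. They are RefSeq windows of 250 bases before to 50 bases after the start of the gene, on the strand of the gene, in build GRCm38.p6. Windows of 8 of the 10 genes were searched. None was listed for Ccr10, and Mzb1 was left out of the search. The windows are chr5:88527848-88528147 (minus strand) for Jchain, chr16:11313559-11313858 (plus strand) for Tnfrsf17, chr13:119623569-119623868 (plus strand) for Ccl28 and chr1:130826434-130826733 (plus strand) for Pigr. Capitals mark a match to a motif.
Jchain: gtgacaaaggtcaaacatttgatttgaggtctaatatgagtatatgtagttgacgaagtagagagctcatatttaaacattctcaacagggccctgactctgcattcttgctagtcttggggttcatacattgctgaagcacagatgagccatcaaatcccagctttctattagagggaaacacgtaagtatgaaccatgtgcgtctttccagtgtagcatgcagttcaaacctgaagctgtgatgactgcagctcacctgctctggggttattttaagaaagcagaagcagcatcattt
Tnfrsf17: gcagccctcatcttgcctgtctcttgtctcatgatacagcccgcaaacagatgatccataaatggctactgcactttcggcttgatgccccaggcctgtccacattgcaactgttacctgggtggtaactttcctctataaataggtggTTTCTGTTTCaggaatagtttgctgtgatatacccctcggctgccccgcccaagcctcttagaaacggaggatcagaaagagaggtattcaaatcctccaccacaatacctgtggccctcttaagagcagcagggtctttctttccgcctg
Ccl28: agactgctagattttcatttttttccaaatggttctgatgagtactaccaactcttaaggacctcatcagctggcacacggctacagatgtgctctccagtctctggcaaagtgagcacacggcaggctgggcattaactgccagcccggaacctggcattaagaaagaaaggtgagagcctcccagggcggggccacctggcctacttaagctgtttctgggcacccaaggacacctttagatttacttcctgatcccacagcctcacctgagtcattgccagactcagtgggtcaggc
Pigr: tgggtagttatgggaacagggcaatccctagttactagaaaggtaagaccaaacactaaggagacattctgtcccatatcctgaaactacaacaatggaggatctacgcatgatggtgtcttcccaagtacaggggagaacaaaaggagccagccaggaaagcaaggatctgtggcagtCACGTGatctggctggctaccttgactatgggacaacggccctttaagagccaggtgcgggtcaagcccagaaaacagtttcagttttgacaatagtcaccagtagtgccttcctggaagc
The windows were searched on both strands for 4 motifs: CACGTG, the E-box; ATGCAAAT, the octamer bound by OCT factors; TGACGTGG, an element bound by XBP1 and ATF6; and a GAAA repeat with 2 bases between its 2 copies, an element of interferon regulatory factors. Pigr held CACGTG 71 bases before the start, a motif in 7.15% of 32851 promoters of this length. Tnfrsf17 held the GAAA repeat on the other strand, 101 bases before the start, a motif in 3.44% of promoters. ATGCAAAT, in 1.74%, and TGACGTGG, in 0.676%, were in none of the windows shown, and the windows of Jchain and Ccl28 held none of the 4. A match describes these letters only.

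Across the 10 genes, 8 had all 3 knockdown libraries above the control by TPM, where 43.6% of all tested genes did (31.8% on counts scaled by TMM, the trimmed mean of M values, which brings libraries to a common composition). Pigr had all 3 below, where 15.9% of genes did (27.7% on TMM-scaled counts), and Tnfsf13 lay on both sides. The same 8 also fell in the order knockdown replicate 1, 2, 3, control, where 33.6% of genes did, and 7 of them did on TMM-scaled counts, where 21.3% of genes did. The median of all genes against the control was itself above 0 by TPM, at 0.60, 0.31 and 0.05 on the log2 scale in knockdown replicates 1, 2 and 3, and at 0.05, 0.03 and 0.01 with TMM. The median log2 fold change of the 10 genes was 1.47, against 0.06 for all genes tested, of which 53.5% had a log2 fold change above 0. None of the 10 was called by edgeR's quasi-likelihood test, where 0.0% of the genes tested were called and 3.65%, 556 genes, had an unadjusted p under 0.05. The limma fits called no gene either. DESeq2 called 1 of the 10, Jchain, and 1.17% of all genes, 178. Without knockdown replicate 3 edgeR called 4 of the 10, Mzb1, Tnfrsf17, Ccr10 and Ccl28, and 7.33% of all genes, and without replicate 2 it called Mzb1 alone and 1.07% of genes.

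Genes with products of the plasma cell itself were higher in all 3 knockdown libraries than in the control, in the order replicate 1, 2, 3. By TPM 33.6% of all tested genes had that order. Jchain had 8248, 2771 and 801 TPM in knockdown tumours 1, 2 and 3, against 257 TPM in the control, so its lowest knockdown value was 3.11 times the control and its highest 32.0 times. The gene ranked 3rd, 35th and 209th of all genes by TPM in knockdown tumours, against 637th in the control. Its mean was 3940 ± 3859 TPM (SD, n = 3) in knockdown libraries, and those 3 libraries differed among themselves by 10.3-fold. The log2 fold change was 3.49 ± 1.62 (SE), and edgeR's quasi-likelihood test gave an adjusted p of 0.782 with Benjamini-Hochberg adjustment over 15246 genes, while DESeq2 gave 0.043. The gene lies on chromosome 5 from 88519809 to 88527891 in the GRCm38 annotation.

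Mzb1, an endoplasmic reticulum protein that helps plasma cells to assemble and secrete antibody, had 250, 126 and 21.8 TPM in knockdown tumours 1, 2 and 3, against 9.22 TPM in the control. Tnfrsf17, the receptor of long-lived plasma cells, had 22.6, 8.51 and 2.99 TPM in knockdown tumours, against 0.72 TPM in the control, where it rested on 9 counts. The knockdown values of both genes lay above the single control, as did those of 43.6% of all tested genes by TPM. The spread of the knockdown libraries was 11.5-fold for Mzb1 and 7.56-fold for Tnfrsf17. The log2 fold change was 3.42 ± 1.39 (SE) for Mzb1 and 3.55 ± 1.30 (SE) for Tnfrsf17. For both, edgeR's quasi-likelihood test gave an adjusted p of 0.782, and Tnfrsf17 was the 1 gene of the 10 with an unadjusted p under 0.05, at 0.0463. By annotation Mzb1 shares 57.2% of its exon bases with SPATA24 on the same strand, so some reads could be split between them, and Spata24 itself had 44, 22 and 15 counts in knockdown tumours, against 25 in the control. Xbp1 and Prdm1, transcription factors of the secretory state, are described further below because other cells also make them.

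**Figure D1:**
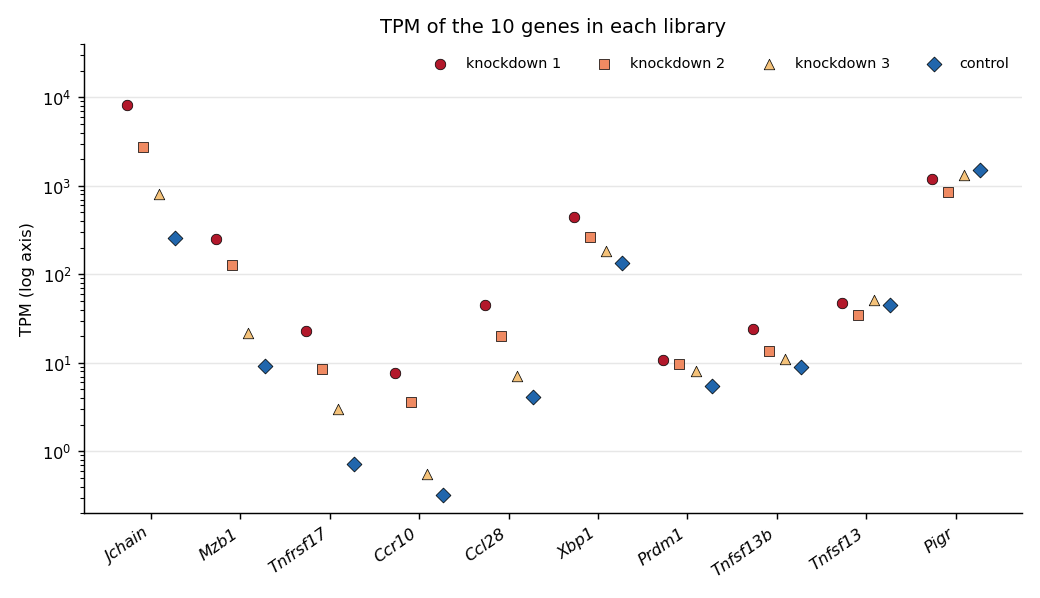
TPM on a log axis for the 10 genes in each of the 4 libraries, with 1 point per library and no error bar because each point is a single library. In 8 of the 10 genes the 3 knockdown libraries lie above the control, with Jchain between 801 and 8248 TPM in knockdown libraries and at 257 TPM in the control, while Pigr lies below it and Tnfsf13 on both sides.

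Each knockdown library was then set against the control on its own, on TMM-scaled counts, with exact 95% intervals that cover counting error only. Jchain was 21.8-fold (21.4 to 22.3), 8.87-fold (8.68 to 9.07) and 3.01-fold (2.94 to 3.09) higher in knockdown replicates 1, 2 and 3 than in the control. Mzb1 was 18.5-fold, 11.3-fold and 2.29-fold higher, and Tnfrsf17 21.5-fold, 9.81-fold and 4.04-fold higher. These 3 genes were the ones over 2-fold higher in knockdown replicate 3, where 6.46% of genes were, while 6 of the 10 were so in replicate 1, where 24.6% of genes were, and 5 in replicate 2, where 15.7% were. Pigr was over 2-fold lower in replicate 2, where 7.44% of genes were, and no gene of the 10 was so in the other knockdown libraries, where 16.9% and 5.63% of genes were.

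**Figure D2:**
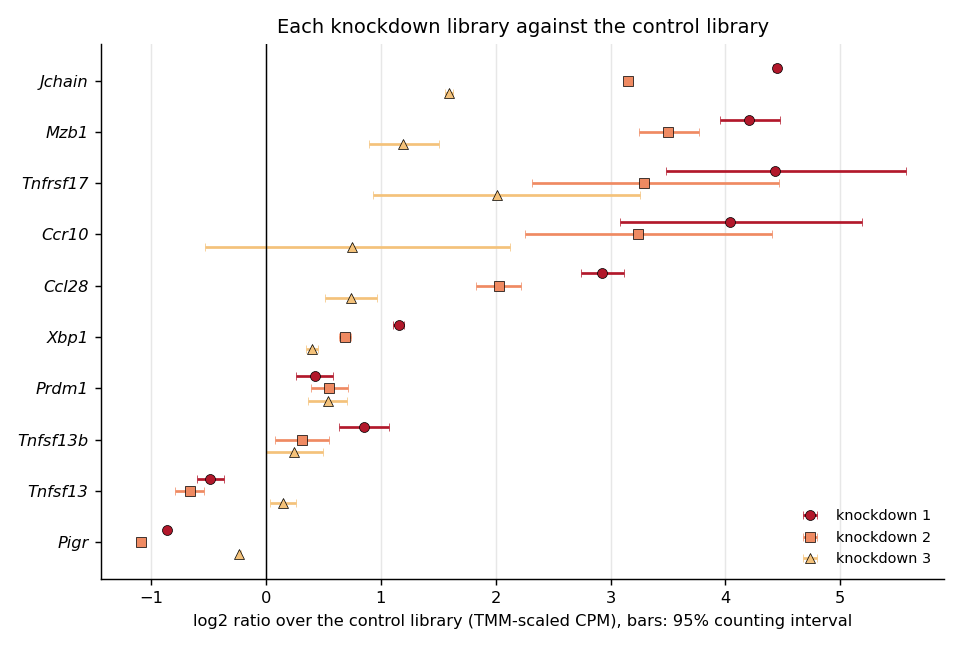
The log2 ratio of each knockdown library over the control on TMM-scaled counts for the 10 genes, with bars for the exact 95% counting interval. Jchain, Mzb1 and Tnfrsf17 are the 3 genes over 2-fold higher (log2 above 1) in all 3 knockdown libraries, and Pigr is the gene below 0 in all 3.

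Mzb1 and Tnfrsf17 kept a narrow range of ratios to Jchain, while the highest knockdown TPM was 27.1 times the control for Mzb1 and 32.0 times for Jchain. Mzb1 was at 3.03%, 4.56% and 2.72% of the Jchain TPM in knockdown tumours, against 3.58% in the control, a range of 1.68-fold. Tnfrsf17 was at 0.274%, 0.307% and 0.373% of the Jchain TPM in knockdown tumours, against 0.280% in the control, a range of 1.36-fold. Ccr10 over Jchain ranged 1.90-fold, with 0.0926%, 0.131% and 0.0687% in knockdown tumours, against 0.124% in the control. The ratios of Ccr10 are uncertain, as it had 15 counts in knockdown replicate 3 and 9 in the control. Xbp1 did not keep such a ratio: it was at 5.32%, 9.46% and 22.8% of the Jchain TPM in knockdown tumours, against 52.2% in the control, a range of 9.81-fold. In bulk tissue, fewer plasma cells and less of these transcripts per cell cannot be told apart.

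**Figure D3:**
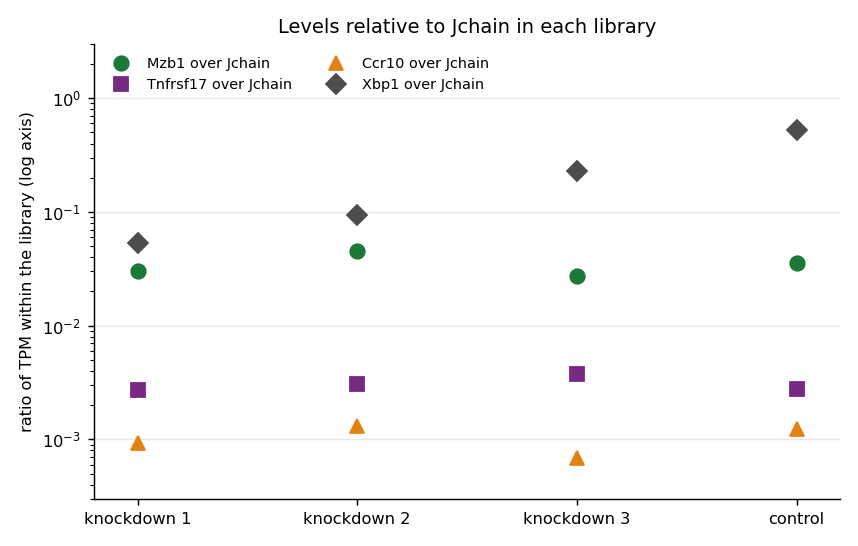
TPM of 4 genes divided by the TPM of Jchain within each library, on a log axis, with 1 point per library. Mzb1, Tnfrsf17 and Ccr10 stay within 1.90-fold across the 4 libraries, whereas Xbp1 ranges 9.81-fold and is highest relative to Jchain in the control. Ccr10 rests on 15 counts in knockdown replicate 3, and Ccr10 and Tnfrsf17 each on 9 in the control.

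Of the receptor and ligand that bring plasma cells to mucosa, both were higher in all knockdown libraries, as were 43.6% of all tested genes by TPM. Ccr10 had 7.64, 3.62 and 0.55 TPM in knockdown tumours 1, 2 and 3, against 0.32 TPM in the control. These levels rested on 194, 101 and 15 counts in knockdown tumours, against 9 in the control. In knockdown replicate 3 its ratio to the control was 1.68-fold with a counting interval of 0.690 to 4.36, so that library and the control did not differ beyond counting error. The log2 fold change was 3.19 ± 1.57 (SE), and edgeR's quasi-likelihood test gave an adjusted p of 0.782. By annotation Ccr10 lies within the span of Cntnap1 on the opposite strand, with no shared exon bases.

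Ccl28, the ligand, is made by epithelial cells of colon and glands rather than by plasma cells. It had 45.5, 20.1 and 7.01 TPM in knockdown tumours 1, 2 and 3, against 4.07 TPM in the control. Relative to Epcam, an adhesion protein of epithelial cells, it was at 2.75%, 1.03% and 0.387% in knockdown tumours, against 0.214% in the control, a 12.9-fold range. Epcam itself had 1651, 1947 and 1813 TPM in knockdown tumours, against 1900 TPM in the control. The log2 fold change of Ccl28 was 2.15 ± 0.98 (SE), and edgeR's quasi-likelihood test gave an adjusted p of 0.782, or 0.011 without knockdown replicate 3. Vil1, the microvillus protein villin, had 870, 1696 and 2048 TPM in knockdown tumours, against 2078 TPM in the control, so this epithelial marker was lowest in the library where Ccl28 was highest. The part of epithelial content in the Ccl28 result was not tested.

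Among 17 genes of mucosal homing, which include Ccr10 and Ccl28, 12 had a higher and 5 a lower fitted level, and none was called by edgeR's quasi-likelihood test (0 at an unadjusted p under 0.05, 0 by DESeq2). Ccl25, the small bowel chemokine that attracts CCR9-bearing cells, had 275, 883 and 956 TPM in knockdown tumours, against 1096 TPM in the control, the opposite order to Ccl28. Its receptor gene Ccr9 had 0.86, 1.05 and 1.61 TPM in knockdown tumours, against 1.06 TPM in the control, on both sides of it. Madcam1, the vessel addressin of gut homing, had 3.78, 1.5 and 0.59 TPM in knockdown tumours, against 1.08 TPM in the control. None of these 3 lay clear of the control in the same direction as Ccl28, but others of the list did. Over the 17 genes the median log2 fold change was 1.10. By TPM 6 of the 17, Ccr10 and Ccl28 included, had all 3 knockdown libraries above the control, where 43.6% of all genes did. Another 2 had all 3 below, where 15.9% of genes did. The chemokine gene Cxcl12, among the 6, had 49.7, 21.1 and 8.03 TPM in knockdown tumours, against 6.05 TPM in the control.

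The survival ligands differed less. Tnfsf13b, which encodes BAFF, had 23.95, 13.6 and 11.1 TPM in knockdown tumours 1, 2 and 3, against 9.05 TPM in the control. On TMM-scaled counts its ratio to the control was 1.80, 1.24 and 1.18 in knockdown replicates 1, 2 and 3, the last with a counting interval of 0.999 to 1.41 that includes no difference. Tnfsf13, which encodes APRIL, had 47.7, 34.7 and 51.9 TPM in knockdown tumours, against 45.4 TPM in the control, on both sides of it. The log2 fold changes were 0.50 ± 0.38 (SE) for Tnfsf13b and -0.29 ± 0.41 (SE) for Tnfsf13, with adjusted p of 0.782 and 0.814 by edgeR's quasi-likelihood test. Tnfsf13 over Tnfsf13b was 1.99, 2.54 and 4.69 in knockdown tumours, against 5.02 in the control. Tnfsf13 shares 60.0% of its exon bases with the readthrough gene Tnfsfm13, so its counts are uncertain. That gene had 29, 22 and 12 counts in the knockdown libraries and none in the control.

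The other receptors of BAFF and APRIL were highest in knockdown replicate 1, as Tnfrsf17 was. Tnfrsf13b, which encodes TACI, had 6.52, 2.75 and 0.54 TPM in knockdown tumours, against 0.43 TPM in the control. Tnfrsf13c, the BAFF receptor of mature B cells, had 5.29, 2.45 and 0.59 TPM in knockdown tumours, against 0.86 TPM in the control, so that knockdown replicate 3 was the lowest of the 4. Over the 18 ligands and receptors of the system, 10 had a higher and 8 a lower fitted level, with a median log2 fold change of 0.31, and none was called by edgeR's quasi-likelihood test (1 at an unadjusted p under 0.05, 0 by DESeq2).

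By TPM 15.9% of all tested genes lay below the control in every knockdown library. Of the 10 only Pigr, the transport receptor of the epithelium, did. It had 1208, 852 and 1309 TPM in knockdown replicates 1, 2 and 3, averaging 1123 ± 240 TPM (SD, n = 3), and 1492 TPM in the control. It ranked 140th, 208th and 102nd by TPM in knockdown tumours, against 88th in the control, among the most abundant transcripts of all 4. The log2 fold change was -0.68 ± 0.77 (SE), and edgeR's quasi-likelihood test gave an adjusted p of 0.791, so it did not pass. The TMM-scaled ratio to the control was 0.551, 0.471 and 0.851 in knockdown replicates 1, 2 and 3. The gene lies on chromosome 1 from 130826684 to 130852249 in the GRCm38 annotation.

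Jchain over Pigr, the TPM of the antibody's joining chain against that of its carrier, was 6.83, 3.25 and 0.612 in knockdown tumours 1, 2 and 3, against 0.173 in the control. This ratio therefore ranged 39.6-fold over the 4 libraries, while Pigr over Epcam ranged 1.79-fold, with 0.732, 0.438 and 0.722 in knockdown tumours, against 0.785 in the control. Pigr over Vil1 ranged 2.76-fold, with 1.39, 0.503 and 0.639 in knockdown tumours, against 0.718 in the control, so on that measure knockdown replicate 1 lay above the control. The 10 genes together took 1.03%, 0.410% and 0.24% of all TPM in knockdown tumours, against 0.196% in the control. Jchain took 0.825% of all TPM in knockdown replicate 1 and 0.0257% in the control, and Pigr took 0.121% and 0.149%, so the more abundant of the 2 transcripts was Jchain in knockdown replicate 1 and Pigr in the control.

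Of 22 genes known to induce Pigr, through interferon, TNF, IL-17 and Toll-like receptors, 11 had a higher and 11 a lower fitted level, with a median log2 fold change of 0.01, and none was called by edgeR's quasi-likelihood test (1 at an unadjusted p under 0.05, 2 by DESeq2). Il17a, the cytokine of type 17 cells, had 3.27, 2.87 and 0 TPM in knockdown replicates 1, 2 and 3 and no count in the control. Tnf had 17.96, 15.98 and 0.95 TPM in knockdown tumours, against 0.15 TPM in the control, on 4 counts, and was called by DESeq2 with an adjusted p of 0.009. Tlr4, the lipopolysaccharide receptor, had 15.3, 4.88 and 0.42 TPM in knockdown tumours, against 0.25 TPM in the control. Il17a, Tnf and Tlr4 were low in replicate 3 and the control. Any part of these genes in the level of Pigr was not tested.

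Xbp1 and Prdm1, which drive the secretory programme of plasma cells, are also expressed by epithelial and other cells. Xbp1 had 438, 262 and 182 TPM in knockdown tumours 1, 2 and 3, against 134 TPM in the control, and the 4 libraries lay within 3.26-fold. Prdm1 had 10.8, 9.72 and 8.17 TPM in knockdown tumours, averaging 9.55 ± 1.30 TPM (SD, n = 3), and 5.47 TPM in the control. The log2 fold change was 0.78 ± 0.49 (SE) for Xbp1 and 0.50 ± 0.25 (SE) for Prdm1, and edgeR's quasi-likelihood test gave both an adjusted p of 0.782. Prdm1 was 1.34-fold, 1.47-fold and 1.45-fold higher on TMM-scaled counts, with counting intervals that overlap, so its knockdown libraries have no order on that scale.

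Among 37 genes of the unfolded protein response and targets of XBP1, 28 had a higher and 9 a lower fitted level, with a median of 0.36, and none was called by edgeR's quasi-likelihood test (2 at an unadjusted p under 0.05, 0 by DESeq2). Hspa5, the chaperone BiP, had 891, 622 and 406 TPM in knockdown tumours, against 392 TPM in the control, and Agr2, a disulphide isomerase of goblet cells, had 2074, 1062 and 500.1 TPM in knockdown tumours, against 566 TPM in the control. Of the 3 largest changes on the list, 2 ran downward and that of Creld2, an endoplasmic reticulum protein, upward, with 183, 79.7 and 38.9 TPM in knockdown tumours, against 28.5 TPM in the control. Dnajb9, a chaperone of the endoplasmic reticulum, had 62.6, 57.4 and 70.6 TPM in knockdown tumours, against 145 TPM in the control. Ddit3, which encodes the stress factor CHOP, had 22.8, 33.9 and 39.8 TPM in knockdown tumours, against 75.4 TPM in the control. The list as a whole therefore held genes on either side of the control.

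The list of plasma cell genes was chosen with earlier results of these data known, so it is no independent check of that label. It held 20 genes outside the 10. Of these, 18 had a higher and 2 a lower fitted level, with a median log2 fold change of 1.45 (0.76 without knockdown replicate 1), 14 had all 3 knockdown libraries above the control by TPM, where 43.6% of all genes did, and none was called by edgeR's quasi-likelihood test (1 at an unadjusted p under 0.05, 1 by DESeq2). Derl3, an endoplasmic reticulum protein of secretory cells, had 49.6, 16.1 and 2.98 TPM in knockdown tumours 1, 2 and 3, against 0.92 TPM in the control, and was called by DESeq2 with an adjusted p of 0.045. Irf4, a transcription factor of plasma cells, had 11.96, 4.56 and 1.34 TPM in knockdown tumours, against 0.53 TPM in the control. Pou2af1, the coactivator OBF1, had 50.1, 18.5 and 2.83 TPM in knockdown tumours, against 2.16 TPM in the control. Sdc1, the surface proteoglycan CD138 that is also made by epithelium, had 181, 119 and 55.9 TPM in knockdown tumours, against 48.0 TPM in the control. The median log2 ratio of the list was 2.34, 1.21 and 0.14 in knockdown replicates 1, 2 and 3, so its middle lay near the control in replicate 3. Jchain, Mzb1 and Tnfrsf17 were over 2-fold higher there, and so were some genes of the list, Derl3 and Irf4 among them.

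B cell genes had a median log2 ratio of 0.70, 0.66 and -0.92 in knockdown replicates 1, 2 and 3, and their difference from the plasma cell list was not tested. Of 17 tested, 10 had a higher and 7 a lower fitted level, with a median of 0.40 (0.21 without knockdown replicate 1 and 0.19 without replicate 2), and none was called by edgeR's quasi-likelihood test (0 at an unadjusted p under 0.05, 0 by DESeq2). Ms4a1, which encodes CD20, had 5.17, 6.05 and 0.37 TPM in knockdown tumours, against 3.16 TPM in the control. Knockdown replicate 3 was thus the lowest library for Ms4a1 while it was above the control for Jchain. Cd79a, an antigen receptor chain kept in part by plasma cells, had 90.6, 35.8 and 6.73 TPM in knockdown tumours, against 3.95 TPM in the control. Pax5, the B cell transcription factor, was at or below 0.42 TPM in every library and was not tested.

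**Figure D4:**
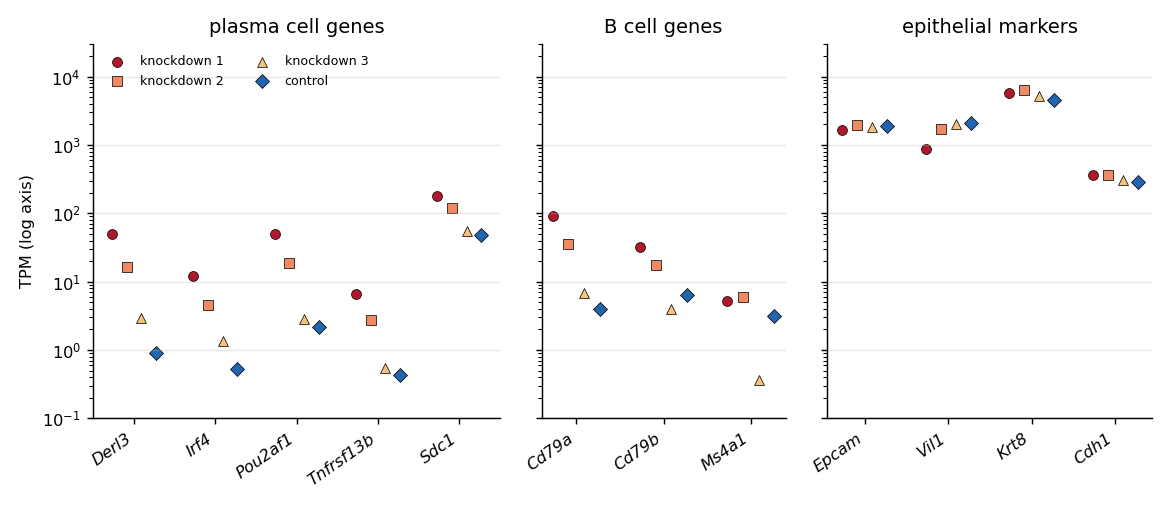
TPM on a log axis for genes of plasma cells, B cells and epithelium in each library, with 1 point per library. The plasma cell genes shown, Derl3, Irf4, Pou2af1, Tnfrsf13b and Sdc1, lie in the order knockdown replicate 1, 2, 3, control. Not all of the 20 on their list do, as 14 had all 3 knockdown libraries above the control. Ms4a1 is lowest in knockdown replicate 3, at 0.37 TPM. Epcam stays between 1651 and 1947 TPM in knockdown libraries with 1900 TPM in the control, while Vil1 is lowest in knockdown replicate 1, at 870 TPM.

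Of 29 genes tested that take part in the induction of IgA and switching to it, 22 had a higher and 7 a lower fitted level, with a median log2 fold change of 0.44 (0.21 without knockdown replicate 1 and 0.73 without replicate 3), and none was called by edgeR's quasi-likelihood test (1 at an unadjusted p under 0.05, 0 by DESeq2). Icos, a costimulator of helper T cells, had 5.25, 1.91 and 0.53 TPM in knockdown tumours, against 0.22 TPM in the control. Nos2, the inducible nitric oxide synthase, had 126, 97.4 and 2.49 TPM in knockdown tumours, against 5.81 TPM in the control, so replicate 3 lay below the control. Il6, a cytokine that supports plasma cells, had 1.47, 1.45 and 0.06 TPM in knockdown tumours and no count in the control.

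Markers of other cells were also compared, and their part in the results above was not tested. Of the macrophage, fibroblast and neutrophil lists that come first, edgeR's quasi-likelihood test called no gene (1, 0 and 4 at an unadjusted p under 0.05) and DESeq2 called 0, 0 and 4. All 15 macrophage and dendritic cell markers had a higher fitted level, with a summed level of 1647, 1041 and 305 TPM in knockdown tumours 1, 2 and 3, against 300.5 TPM in the control. All 12 fibroblast and endothelial markers had a higher fitted level, with 598, 298 and 131 TPM in knockdown tumours, against 96.5 TPM in the control, but 3 of the 12 had all 3 knockdown libraries above the control by TPM and the median log2 ratio in replicate 3 was -0.13. All 10 neutrophil markers tested had a higher fitted level, with 1230, 936 and 23.9 TPM in knockdown tumours, against 5.72 TPM in the control, where S100a8 and S100a9 had no count. In the summed level of each of these 3 lists knockdown replicates 1 and 2 were the highest, as they were for Jchain. Of 10 T cell markers, 5 were higher and 5 lower, with 87.1, 61.1 and 83.1 TPM in knockdown tumours, against 62.3 TPM in the control. The 15 epithelial markers summed to 23499, 26462 and 23545 TPM in knockdown tumours, against 21501 TPM in the control, with 9 higher and 6 lower.

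The genes with a pattern most like a member's were found by the root mean square difference of log2 TPM over the 4 libraries, after centring, among 8758 genes, and this is a description of 4 points only. Nearest to Jchain were Lax1, an adaptor of lymphocytes, at 0.16, Tnfrsf17 at 0.17 and Dmbt1, a mucosal scavenger protein, at 0.21. Nearest to Mzb1 were S100a14 at 0.05, Penk at 0.17 and Tnfrsf1b, a TNF receptor, at 0.17, all nearer than Jchain was, at 0.28. Nearest to Tnfrsf17 were Lax1 at 0.14, Cpa3, a mast cell protease, at 0.16 and Jchain at 0.17. Nearest to Ccr10 were Parm1 at 0.05, Anxa3 at 0.07 and Prss27 at 0.08, all nearer than Mzb1, at 0.26, and Jchain, at 0.40. Jchain and Pigr were 2.07 apart, and Pigr was nearest to Ndufa5, a subunit of respiratory complex I, at 0.06. Ccl28 was nearest to Apobec3, a cytidine deaminase, at 0.03, and Xbp1 to Cebpz at 0.01.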

How the data were processed

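Gene levels of 4 RNA sequencing libraries were taken from 1 table. For each library the authors deposited expected counts, that is estimated reads per gene with fractions allowed, as well as TPM and FPKM. The authors' deposited columns of a knockdown over control fold and a posterior probability of equal expression hold their own comparison and were not used. Bowtie 0.12.2 and builds mm8 and mm10 appear in the submitters' processing notes, with no role given. Because of this, coordinates are those of GRCm38. The counter is not given in the sources used here. Expected counts had fractions in 5.30% to 5.89% of values and were rounded for the tests. The sample descriptions tie each column to its library.

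Of 24444 genes, 15246 passed filterByExpr of edgeR with a minimum count of 10, among them all 10 described here. They were scaled by TMM (factors 1.30, 1.06 and 0.867 for knockdown, 0.844 for control) and tested two-sided by edgeR 4.0.16 (R 4.3.3, quasi-likelihood F-test), with p-values adjusted by Benjamini-Hochberg across all these genes and called at 0.05. Only the knockdown libraries gave residual degrees of freedom, 2 in number. For 3 libraries against 1, no exact permutation p can be under 0.25. The script was tested on simulated data. The 10 genes, the 16 lists and the rule for named genes (every member, 3 genes of largest change per list and a fixed set of markers) were chosen with earlier results of these data known. Alternatives were RLE factors, library size alone, no filter, a count of 50 in a library, DESeq2 1.42.0, limma 3.58.1 on log2 CPM (prior count 2), on log2(FPKM + 1) and on log2(FPKM + 0.1), and each knockdown library left out in turn. Ratios of single libraries carry exact 95% binomial intervals, which cover counting error only. Some results that the rule for named genes would name are not reported here.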

Additional observations from a re-analysis of the deposited data

How the results depend on the processing

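All 10 genes kept the direction of their log2 fold change under every alternative, except Tnfsf13, at 0.011 with library size alone and -0.29 with TMM. The single-library log2 ratio of Tnfsf13 in knockdown replicate 1 was 0.13 with library size alone and 0.070 by TPM. The number of genes called was 178 by DESeq2 against 0 by edgeR with all libraries, and 0 to 1111 with a knockdown library left out, the highest without replicate 3. Of the 10 genes, DESeq2 called 1, and 0 to 4 were called with a library left out. With a margin of 1.5-fold between the control and the nearest knockdown library, 5 of the 10 lay above and 0 below. With a library left out, 8 to 9 lay above and 1 below. The share of all genes in either case is not given here, so these counts cannot be set against a background.

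The median of the unfolded protein response list was 0.73 with library size alone, 0.67 on log2(FPKM + 1) and 0.68 on log2(FPKM + 0.1), and 0.29 to 0.42 with a library left out. That of the Pigr induction list was -0.025 with RLE factors, -0.025 by DESeq2, -0.010 with a count of 50, 0.35 with library size alone, 0.32 on log2(FPKM + 1), 0.33 on log2(FPKM + 0.1), and -0.035 to 0.046 with a library left out. That of the BAFF and APRIL list was 0.67, 0.48 and 0.61 under library size alone, log2(FPKM + 1) and log2(FPKM + 0.1), and 0.24 to 0.35 with a library left out. That of the epithelial markers was 0.41, 0.40 and 0.40 under the same 3, and -0.025 to 0.19 with a library left out. With a library left out, the median was 0.76 to 1.89 for the plasma cell list, 0.19 to 0.49 for the B cell list, 0.21 to 0.73 for the IgA induction list and 0.72 to 1.38 for mucosal homing. The cause was not tested.

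No paired analysis was possible because the control is a single library. Counts of 9 in the control limit Tnfrsf17 and Ccr10.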
